A study of Mus musculus with 4 samples.

Results

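The genes described here are 10 chemokines and chemokine receptors that guide dendritic cells and lymphocytes: Ccl17, Ccl22 and their receptor Ccr4, the receptor Ccr7, the pair Ccl20 and Ccr6, the pair Cxcl13 and Cxcr5, and the pair Ccl28 and Ccr10. They were taken by symbol, 10 of the 31053 genes counted, and each was found once. Their raw counts were read in single cells of mouse colon tumours, sorted into classes by the counts of other marker genes. The tumours were raised in female C57BL/6 mice with the carcinogen azoxymethane (AOM, 12.5 mg/kg) and 3 cycles of dextran sulphate sodium (DSS), an agent that inflames the colon, at 2.5% and then 2% in the last cycle, and were taken 30 days after it. The labels name 4 samples, 1 in each of 4 groups: CD45+ (immune) and CD45- (non-immune) cells from Egfr fl/fl mice, and the same 2 fractions from mice labelled EgfrΔMYL, which lack Egfr, the epidermal growth factor receptor, in the myeloid lineage. All 4 groups carried AOM/DSS tumours, so no untreated colon was included. The promoter that drives the deletion, the age of the mice and the number of mice behind a sample are not given in the sources used here.

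The counts came as 1 matrix of 18026 barcodes with 4 endings. Barcodes with the same ending are called a library below. Which ending belongs to which sample is not stated in the sources used here, so genotypes and sorts were not compared and each library's value stands alone. Without replicates, no p-value was computed. Levels are given as CPM, the summed unique molecular identifiers (UMIs, single captured molecules) of a gene over all UMIs of a cell class, scaled to 1000000. With 3′ tags, 1 UMI stands for 1 molecule whatever the length of the transcript. The ranges in parentheses are exact 95% intervals, Poisson for a CPM and Clopper-Pearson for a log2 ratio, and cover counting error only.

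After filtering, 14198 cells were kept, 594, 1706, 4516 and 7382 in libraries 1 to 4, with median depths between 3390.5 and 5177 UMIs. Libraries 1 and 2 stood apart: 59.0 and 56.3% of their barcodes failed the filter, against 8.75 and 4.45% in libraries 3 and 4. Haemoglobin took 8.90% of the UMIs of library 1 and 0.981% of library 2, and at most 0.0206% in the others. Libraries 1 and 2 held 338 and 1070 of the 1462 epithelial cells, and libraries 3 and 4 held 3545 and 5111 of the 8888 immune cells. At most 9 barcode sequences were shared by any pair of libraries. The gates placed 10411 cells in 24 classes, 19 of which held at least 50 cells. A further 922 barcodes met the markers of more than 1 lineage and were left out, and 2865 met none.

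The class names were checked against 50 marker genes outside the gates, of which 41 were highest in their own class. All 5 migratory dendritic markers and all 5 plasmacytoid markers were. Of the 5 for the Cd209a class only Clec10a was highest there, and of the 5 for the Xcr1/Clec9a class Irf8 and Batf3 were higher elsewhere, so these classes are called below by their gate genes. Migratory dendritic cells were gated by at least 2 UMIs of Fscn1, at least 1 of Ccr7 and at least 10 of class II genes, which gave 203 cells. The 149 Cd209a cells had at least 2 UMIs of Cd209a and fewer than 5 of the complement C1q genes together. The 161 Xcr1/Clec9a cells had at least 2 of Xcr1 and Clec9a together. Both had the same class II minimum. Macrophages or monocytes were gated by genes such as Csf1r, Adgre1 and C1q, T cells by Cd3d, Cd3e and Cd3g, B cells by genes such as Cd79a, Cd79b and Ms4a1, plasma cells by Jchain, Mzb1 and Derl3, and epithelium by Epcam and keratins. The 2-gene rule alone took 257 barcodes, of which 36 fell below the class II minimum, 16 were mixed and 2 were T cells.

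Chemokines are small secreted proteins that draw cells bearing the matching receptor along a gradient. CCR7 brings dendritic cells, naive T cells and B cells to lymph nodes, and CXCR5 brings B cells to follicles that make CXCL13. CCL17 and CCL22 attract CCR4-bearing T cells, among them regulatory T cells, CCL20 attracts CCR6-bearing lymphocytes at mucosal surfaces, and CCL28 attracts CCR10-bearing antibody-secreting cells to the gut wall.

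In mm10 with the GENCODE M21 annotation, Ccl22 lies at chr8:94745590-94751699 and Ccl17 at chr8:94810453-94812036, both on the plus strand, with 58.754 kb between them. Ccl20 lies at chr1:83116766-83119167, Cxcl13 at chr5:95956951-95961068 and Ccl28 at chr13:119623819-119654359, all on the plus strand. Among the receptors, Ccr6 lies on the plus strand at chr17:8236043-8257141. Ccr4 (chr9:114490316-114504916), Cxcr5 (chr9:44511787-44561877), Ccr7 (chr11:99144196-99155077) and Ccr10 (chr11:101172997-101175443) lie on the minus strand.

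The 150 bases before the annotated start of 4 chemokine genes are printed because they compare the neighbouring dendritic pair Ccl17 and Ccl22 with Ccl20 and Ccl28, which had counts in epithelium. They come from RefSeq promoter windows (GRCm38.p6, plus strand, 5′ to 3′), and capitals mark a match to the NF-kB consensus motif, searched on both strands. The windows printed are chr8:94810303-94810452, chr8:94745440-94745589, chr1:83116616-83116765 and chr13:119623669-119623818, in the order below.
Ccl17: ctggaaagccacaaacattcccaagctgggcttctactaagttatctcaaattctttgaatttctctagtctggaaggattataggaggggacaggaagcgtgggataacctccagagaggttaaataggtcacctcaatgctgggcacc
Ccl22: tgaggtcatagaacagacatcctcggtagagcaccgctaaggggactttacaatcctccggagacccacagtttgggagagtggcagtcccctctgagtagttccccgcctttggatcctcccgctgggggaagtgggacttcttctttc
Ccl20: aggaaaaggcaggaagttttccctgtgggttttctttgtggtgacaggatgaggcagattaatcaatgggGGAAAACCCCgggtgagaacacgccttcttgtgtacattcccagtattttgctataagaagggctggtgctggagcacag
Ccl28: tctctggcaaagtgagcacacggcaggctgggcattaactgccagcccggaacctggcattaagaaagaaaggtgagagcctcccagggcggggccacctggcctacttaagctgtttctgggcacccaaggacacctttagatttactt
RefSeq windows of 300 bases were found for 7 of the 10 genes, 8 windows in all, and not for Ccr7, Cxcr5 and Ccr10. The motif was in 2 of the 8, the Ccl20 window shown and the second of the Ccr6 windows, where 3 matches overlap. Among all 32851 windows of the same length, 8.46% held it. A match describes these letters only and does not show binding.

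**Figure D1:**
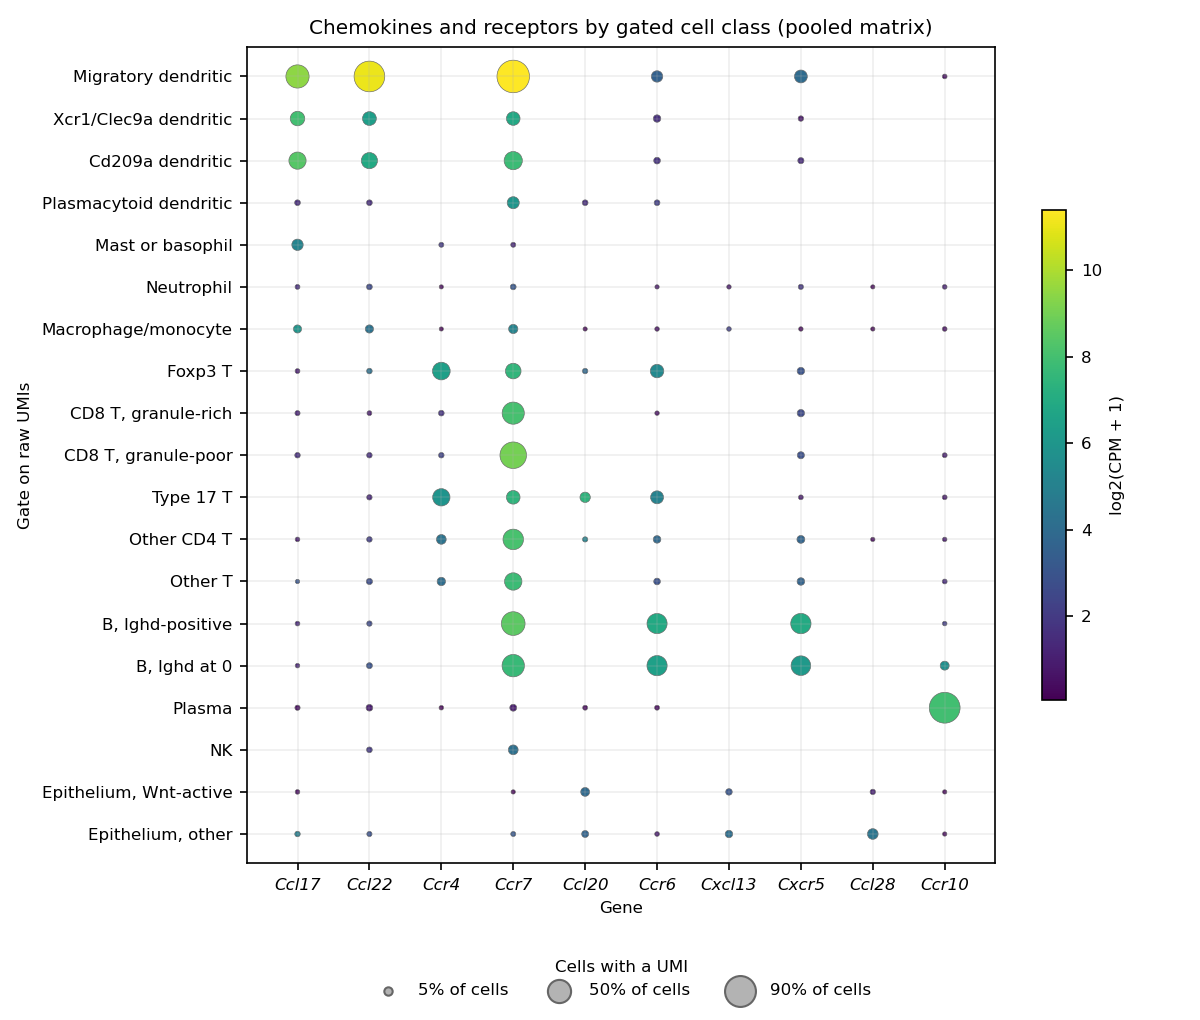
Level of the 10 genes (columns) in the 19 gated classes of at least 50 cells (rows), pooled over libraries; colour is log2(CPM + 1), dot size the percentage of cells with at least 1 UMI, and no dot means 0 UMIs. Ccl17 and Ccl22 peak in migratory dendritic cells, Ccr4 in Foxp3 and type 17 T cells, Ccr6 and Cxcr5 in B cells, Ccr10 in plasma cells and Ccl28 in epithelium; Ccr7 is a gate gene of the migratory class.

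Ccl22 was concentrated in the migratory dendritic cells. They made up 1.43% of kept cells and held 4989 of the 8903 Ccl22 UMIs (56.0%). Their level was 2133 CPM (2075 to 2193), and 180 of 203 cells (88.7%) had a UMI. In plasma cells, a class that should lack the gene and was deeper (median 31205 UMIs against 10780), 2.62% of cells had one. With each cell thinned to 1000 UMIs the shares were 59.9% of migratory and 0.328% of plasma cells. Within libraries the migratory level was 2154 CPM in library 3 and 2145 CPM in library 4, which held 77 and 122 of the cells, so the libraries hardly differed. Next came Cd209a dendritic cells at 119 CPM (104 to 136), Xcr1/Clec9a dendritic cells at 81.5 CPM (71.7 to 92.3) and macrophages or monocytes at 19.1 CPM (17.5 to 20.7). The pooled intervals of these 4 classes did not overlap, but they leave out differences between cells. Of the Cd209a UMIs 120 of 220 lay in 5 cells, and of the Xcr1/Clec9a UMIs 164 of 250. The shares of cells with a UMI, 23.5% (16.9 to 31.1) and 16.8% (11.4 to 23.5), overlapped. Within library 3 Cd209a cells, Xcr1/Clec9a cells and macrophages could not be ordered, at 33.3, 30.8 and 28.6 CPM. The log2 ratio of Cd209a cells over macrophages was 0.22 (-0.54 to 0.89) there, against 3.38 in library 4. Barcodes in no gate, which are outside this order, held 26.4% of all Ccl22 UMIs, at 221 CPM (212 to 230).

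Migratory cells held 17.9-fold more Ccl22 than Cd209a dendritic cells, a log2 ratio of 4.16 (3.96 to 4.36). The ratio was 6.02 within library 3 and 3.76 within library 4, because the Cd209a level was 33.3 CPM in the one and 158 CPM in the other. Against Xcr1/Clec9a cells the log2 ratio was 4.71 (4.53 to 4.90), with 6.13 and 4.32 in libraries 3 and 4. The 56 UMIs in Foxp3 T cells, 17.1 CPM, lay mostly in 1 cell with 44.

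Ccl17 was spread more widely over antigen-presenting cells. Migratory dendritic cells had 708 CPM (674 to 743), with 785 CPM in library 3 and 668 CPM in library 4, and 102 of 203 cells (50.2%) had a UMI. Cd209a dendritic cells had 339 CPM (313 to 366) and Xcr1/Clec9a dendritic cells 246 CPM (229 to 264), with a UMI in 26.8 and 18.6% of cells. Macrophages or monocytes had 61.2 CPM (58.4 to 64.1), from 1792 UMIs in 105 of 2242 cells. In plasma cells 0.984% of cells had a UMI. Thinned to 1000 UMIs, the shares were 26.7, 12.1, 9.32 and 1.77% in these 4 classes and 0 in plasma cells. With few positive cells, the macrophage class still held 20.2% of all Ccl17 UMIs and the migratory class 18.7%, while barcodes in no gate held 30.4%.

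The order of the dendritic classes for Ccl17 depended on the library. The pooled log2 ratio of migratory over Cd209a cells was 1.06 (0.93 to 1.20), but it was 4.05 (3.50 to 4.66) in library 3 and 0.51 (0.36 to 0.66) in library 4. The Cd209a level was 47.3 CPM in the 40 cells of library 3 and 470 CPM in the 109 cells of library 4. Between Cd209a and Xcr1/Clec9a cells the sign changed, from -2.23 in library 3 to 0.86 in library 4. Between Cd209a cells and macrophages the log2 ratio was -0.81 in library 3 and 3.18 in library 4. These orders rest on few cells. Over pooled libraries 5 cells held 275 of the 624 Cd209a UMIs, and 5 held 405 of the 754 Xcr1/Clec9a UMIs. The intervals do not cover such differences between cells.

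Markers of other cells were also counted in these gates. The summed level of neutrophil markers was 630 CPM in migratory, 1104 CPM in Cd209a and 1982 CPM in Xcr1/Clec9a cells. Complement C1q genes were at 936, 33.1 and 888 CPM in the same order, where the Cd209a gate itself limited C1q. The part of these markers in the Ccl17 and Ccl22 values was not tested. T cell markers were at most 3.80 CPM and B cell markers at most 5.87 CPM in the 3 gates.

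In single cells, Ccl17 was nearly always found with Ccl22 in the migratory class. There 99 cells had both, 81 had Ccl22 alone, 3 had Ccl17 alone and 20 had neither. In the macrophage class 31 cells had both, 74 Ccl17 alone and 77 Ccl22 alone, so most cells with 1 of the genes lacked the other. The Cd209a class lay between, with 24, 16 and 11. Ccl22 was in 88.7% of all migratory cells and 4.82% of all macrophages. These counts therefore do not compare how closely the 2 genes go together between classes.

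**Figure D2:**
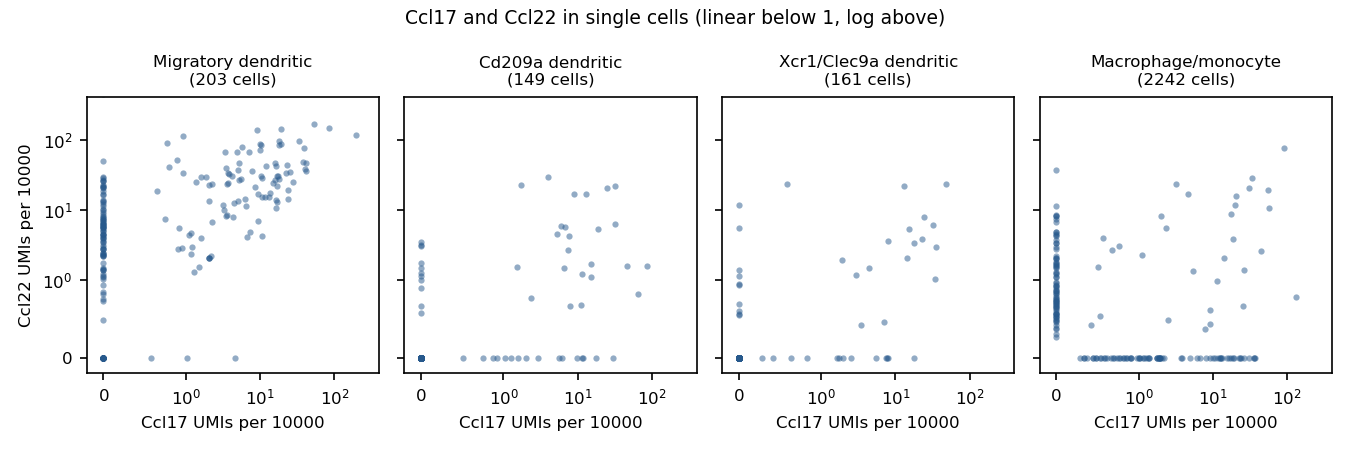
Ccl17 (x axis) and Ccl22 (y axis) in UMIs per 10000 UMIs of the cell, 1 point per cell, axes linear below 1 and logarithmic above; macrophages with neither gene are not drawn. Of 203 migratory cells 99 carry both genes and 3 Ccl17 alone, and most positive macrophages lie on 1 of the axes. Ccl22 is in 88.7% of all migratory cells and 4.82% of all macrophages.

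The Fscn1 threshold was examined over class II-positive cells outside the lymphoid gates, in bins drawn after values had been seen and given as a description. Just inside it, the 12 cells with 2 Fscn1 UMIs had 1813 CPM of Ccl17 and 5297 CPM of Ccl22. Just outside it, the 15 cells with 1 had 497 and 1148 CPM. Cells with at least 3 Fscn1 UMIs, 191 in number, had 670 CPM of Ccl17 and 2025 CPM of Ccl22.

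A larger number of cells had Ccr7 without Fscn1. The 239 cells with 0 Fscn1 and at least 3 Ccr7 UMIs had 943 CPM of Ccl17 (908 to 979) and 833 CPM of Ccl22 (800 to 867). Their Ccl17 was thus above that of the cells with at least 3 Fscn1 UMIs (637 to 705) and their Ccl22 below. The order of Ccl17 held in library 4 (1069 against 648 CPM) and not in library 3 (656 against 719 CPM). Il12b, a subunit of interleukin 12, likewise was at 443 against 248 CPM in library 4 and at 185 against 333 CPM in library 3. Cacnb3, a calcium channel subunit that marks migratory dendritic cells, was at 27.7 and 528 CPM, and Socs2, a cytokine signalling inhibitor, at 78.9 and 662 CPM. Lyz2, a myeloid lysozyme, was at 1481 and 600 CPM. Of the 239 cells 140 were in no gate. The 2582 cells with neither gene had 83.1 CPM of Ccl17 and 13.9 CPM of Ccl22.

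**Figure D3:**
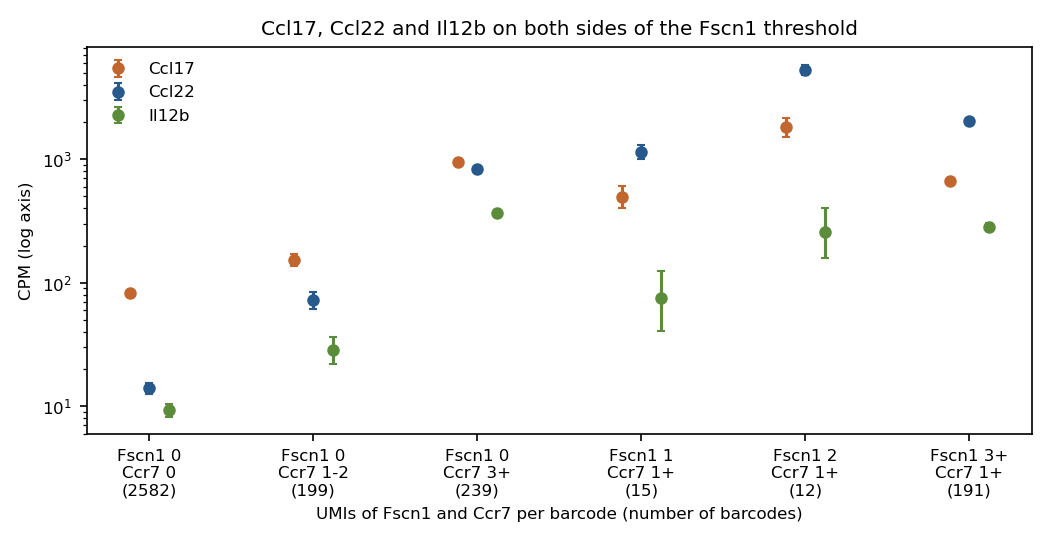
Ccl17, Ccl22 and Il12b (log axis, CPM with 95% Poisson interval) in class II-positive, non-lymphoid cells by their UMIs of Fscn1 and Ccr7; the number of cells stands under each bin. Cells with Ccr7 but no Fscn1 reach 943 CPM of Ccl17 and 833 CPM of Ccl22.

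Among the other genes of the set, Cxcr5 and Ccr6 were low but counted in migratory dendritic cells. Cxcr5, the follicle receptor, had 34 UMIs in 29 of 203 cells, 14.5 CPM (10.1 to 20.3), with 16 UMIs in each of libraries 3 and 4. It had 3 UMIs in Cd209a and 2 in Xcr1/Clec9a cells. The log2 ratio of migratory over Cd209a cells was 3.16 (1.49 to 5.51). Ccr6 had 25 UMIs in 22 cells, 10.7 CPM (6.92 to 15.8), against 2.17 CPM in Cd209a cells. Ccr4, Ccl20, Cxcl13 and Ccl28 had 0 UMIs in all 3 of these dendritic classes, which for the migratory class allows up to 1.28 CPM (3 counts). Leaving out Ccr7, which the gate used, Ccl17, Ccl22, Ccr6 and Cxcr5 had at least 10 UMIs over migratory and Cd209a cells and were at least 2-fold higher in migratory cells, as they were against Xcr1/Clec9a cells. Ccr6 and Cxcr5 reached 10 UMIs through the migratory class, so their direction followed from that minimum. The same holds in the comparisons below for any gene with under 10 UMIs in 1 of the classes, and the counts and medians of genes there are descriptions only. Of all 9928 genes with that many UMIs over migratory and Cd209a cells 15.0% were higher and 19.3% lower, and against Xcr1/Clec9a cells 13.8% were higher.

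Genes of dendritic maturation were set beside them. Of 16 listed, 11 were at least 2-fold higher in migratory than in Cd209a cells and none lower, with a median log2 ratio of 1.50 against -0.10 over all genes. Compared with Cd209a cells, Relb, an NF-kB subunit, was at 548 against 93.4 CPM, Il4i1, an amino acid oxidase, at 976 against 70.0 CPM, and Pdcd1lg2, which encodes PD-L2, at 150 against 24.4 CPM. Cd83, an activation marker, was at 810 and 783 CPM. Against Xcr1/Clec9a cells 14 of the 16 were higher. The list includes the 5 markers by which the migratory class name was checked: Relb, Il4i1, Cd83, Cacnb3 and Socs2. Its counts and median are therefore descriptions and not a separate check of the class. Of a list of 20 other homing genes, 18 could be read by a single gene ID and 11 had enough UMIs: 3 were at least 2-fold higher in migratory than in Cd209a cells and 5 lower, with a median of -0.51. Itga4, an integrin subunit, was at 781 CPM against 213 CPM in Cd209a cells. Its partner Itgb7 was at 15.4 against 244 CPM and the gut receptor Ccr9 at 3.85 against 122 CPM in the same pair. Against Xcr1/Clec9a cells 4 of 12 were higher and 4 lower, where 13.8% of all genes were higher and 24.1% lower. The medians there were -0.15 for the 12 and -0.22 for all genes.

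Ccr7 itself was used to gate migratory cells, where it stood at 2684 CPM, so that level is given without comparison. Among the other classes it was highest, over pooled libraries, in granule-poor CD8 T cells, those with fewer than 3 UMIs of Gzma, Gzmb and Nkg7, at 511 CPM (467 to 557). Ighd-positive B cells followed at 368 CPM (351 to 385), then other CD4 T cells (270 CPM, 253 to 288) and granule-rich CD8 T cells (260 CPM, 240 to 280), whose intervals overlap. Other T cells stood at 221 CPM, Cd209a dendritic cells at 217 CPM and B cells without Ighd at 203 CPM, also with overlapping intervals. Foxp3 T cells (178 CPM) and type 17 T cells (173 CPM) did not differ beyond theirs, and the Foxp3 interval also overlapped that of B cells without Ighd. Parts of this order turned in library 4, where Ighd-positive B cells stood at 329 CPM (297 to 363) and granule-poor CD8 T cells at 264 CPM (189 to 360), which overlap. The log2 ratio of other CD4 over Foxp3 T cells was 0.72 in library 3 and -0.07 (-0.33 to 0.20) in library 4, and that over type 17 T cells 0.63 and -0.05. Plasma cells had 0.962 CPM and epithelium 2.30 CPM, with a UMI in 0.410% of epithelial cells (median 8457.5 UMIs) against 66.0% of granule-poor CD8 T cells (5884.5 UMIs). Thinned, these shares were 0.0740 and 34.2%.

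Granule-poor CD8 cells held more Ccr7 than granule-rich ones, with a log2 ratio of 0.97 (0.81 to 1.14), 0.67 in library 3 and 1.02 in library 4. The library 4 value rests on 29 granule-poor cells with 40 UMIs, 24 of them in 1 cell. The shares of granule-poor and granule-rich cells with a UMI were 24.1 and 25.4% there, and 75.4 and 60.2% in library 3. In this pair 3 of the 10 genes had enough UMIs and none was at least 2-fold higher or lower, where 2.77% of all genes were higher and 8.76% lower. Of 13 other homing genes with enough UMIs, none was at least 2-fold higher and Cxcr6, a receptor of tissue T cells, was lower, at 43.5 against 159 CPM. Their median log2 ratio was -0.08, against -0.12 over all genes. S1pr1, the egress receptor, was at 345 and 240 CPM, and Klf2, a factor that drives it, at 688 and 449 CPM. Among B cells, those with Ighd, the immunoglobulin D heavy chain of naive cells, exceeded those without in Ccr7 by 0.86 (0.71 to 1.01) on the log2 scale, 1.23 and 0.33 in libraries 3 and 4. B and T cells as wholes changed order: their log2 ratio was -0.12 in library 3 and 1.23 in library 4, with 0.38 pooled.

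Ccr4 was a T cell gene in these tumours, with 479 of its 538 UMIs (89.0%) in T cells. Foxp3 T cells, the regulatory class, had 83.2 CPM (73.6 to 93.6), with a UMI in 149 of 524 cells (28.4%). Type 17 T cells, gated by genes that include Il17a and Il17f, had 58.8 CPM (46.5 to 73.4) in 47 of 173 cells. Other CD4 T cells had 19.6 CPM (15.3 to 24.8) and other T cells 15.9 CPM (11.7 to 21.0), which overlap. The CD8 classes had 4.04 and 2.33 CPM. B cells and epithelium had 0 UMIs, which allows a share of up to 0.205% of epithelial cells. Thinned, 7.85% of Foxp3, 5.23% of type 17 and 1.60% of other CD4 T cells had a UMI. The order was the same in both libraries for the first 3 classes: 75.1, 44.9 and 14.6 CPM in library 3 and 88.8, 65.3 and 24.7 CPM in library 4.

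Foxp3 T cells exceeded other CD4 T cells in Ccr4 by a log2 ratio of 2.08 (1.70 to 2.48), 2.36 and 1.84 in libraries 3 and 4. Over type 17 cells the ratio was 0.50 (0.13 to 0.88). Of the 10 genes, 6 had enough UMIs in the Foxp3 and other CD4 comparison: Ccr4, Ccr6 and Ccl22 were at least 2-fold higher in Foxp3 T cells, and Ccl20 at least 2-fold lower. Over all genes 10.5% were higher and 5.43% lower, and the medians were 0.47 for the 6 and 0.15 for all genes. The Ccl22 and Ccl20 differences rest on single cells, 1 Foxp3 T cell with 44 of 56 Ccl22 UMIs and 1 other CD4 T cell with 82 of 122 Ccl20 UMIs. Of the other homing genes, 6 of 15 with enough UMIs were at least 2-fold higher in Foxp3 T cells and 1 lower. Itgae, the integrin that holds lymphocytes to epithelium, was at 194 against 15.5 CPM, Ccr9 at 44.9 against 10.5 CPM and Itgb7 at 444 against 212 CPM, while S1pr1 was at 95.4 against 330 CPM.

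**Figure D4:**
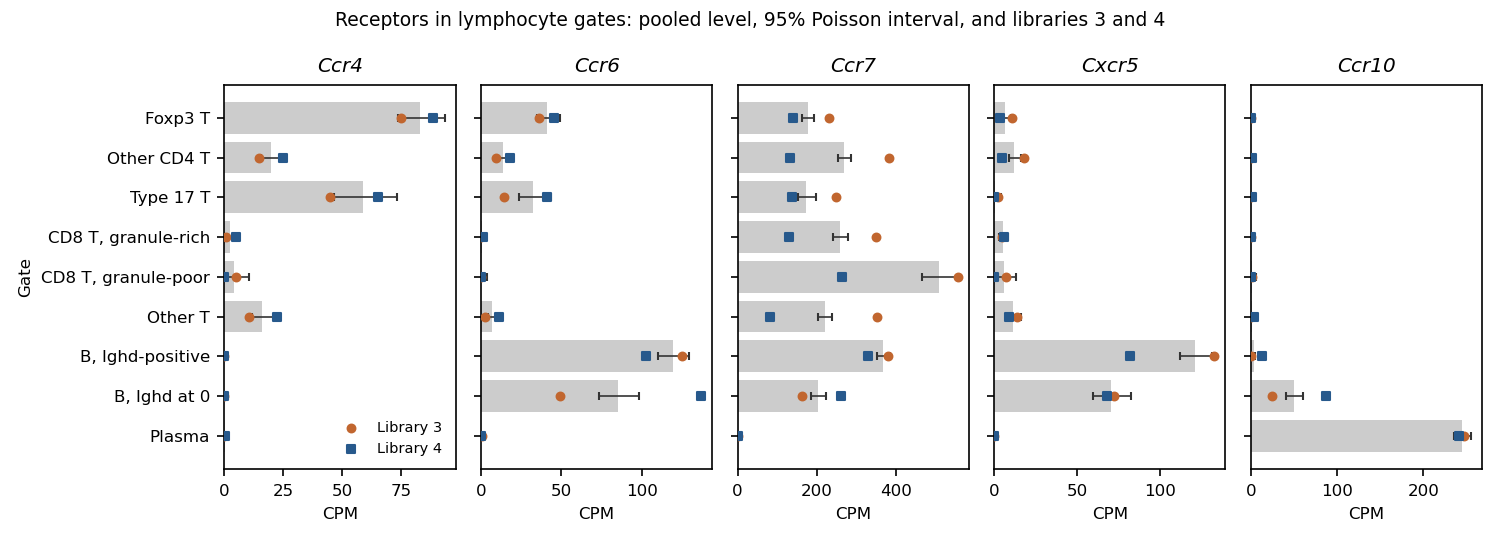
Level in CPM (x axis, from 0) of the 5 receptors in 9 lymphocyte gates; grey bars are pooled levels with 95% Poisson intervals, circles library 3 and squares library 4. Ccr4 peaks in Foxp3 T cells, Ccr6 and Cxcr5 in B cells and Ccr10 in plasma cells, and every T cell gate has more Ccr7 in library 3.

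Ccr6 and Cxcr5 were B cell receptors here. Ccr6 stood at 119 CPM (110 to 129) in Ighd-positive and 85.3 CPM (73.6 to 98.4) in Ighd-negative B cells, with a UMI in 37.3 and 37.5% of cells. In epithelium, which was deeper (median 8457.5 against 4179.5 UMIs in B cells), the share was 0.205%. Thinned, it was 11.1 and 10.1% in the B classes and 0 in epithelium. Next came Foxp3 T cells at 41.3 CPM (34.6 to 48.8) and type 17 T cells at 32.4 CPM (23.5 to 43.7), which overlap, and then other CD4 T cells at 13.6 CPM. B cells exceeded all T cells by a log2 ratio of 2.70 (2.50 to 2.91), 3.37 in library 3 and 2.30 in library 4. The order of the B classes differed by library: 125 CPM with and 49.2 CPM without Ighd in library 3, and 103 and 137 CPM in library 4. Foxp3 T cells exceeded other CD4 T cells by 1.61 (1.12 to 2.11), 1.92 and 1.33 in the libraries.

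Cxcr5 stood at 121 CPM (112 to 131) in Ighd-positive and 70.4 CPM (59.8 to 82.4) in Ighd-negative B cells, with a UMI in 38.0 and 35.4% of cells. It had 0 UMIs in epithelium and in plasma cells. Other CD4 T cells had 12.2 CPM (8.85 to 16.3), which overlapped migratory dendritic cells at 14.5 CPM and other T cells at 11.6 CPM. B cells exceeded T cells by 3.70 (3.42 to 3.99), 3.38 and 3.97 in libraries 3 and 4. Thinned, 11.9 and 8.70% of the B classes had a UMI. In 179 of 1154 Ighd-positive B cells both Ccr6 and Cxcr5 were seen, in 251 Ccr6 alone and in 259 Cxcr5 alone. Of the 10 genes, 8 had enough UMIs between B and T cells: Ccr6, Cxcr5 and Ccr10 were at least 2-fold higher in B cells, and Ccr4 and Ccl20, with 0 UMIs in B cells, lower. Over all genes 10.2% were higher and 19.8% lower. The medians were 0.13 for the 8 and -0.19 for all genes, and 3 of 17 other homing genes were higher in B cells and 7 lower.

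Cxcl13, the ligand of CXCR5, was sparse, with 319 UMIs in all kept cells. Epithelial cells held 173 of them, in 45 of 1462 cells, 10.2 CPM (8.75 to 11.9). All lay in libraries 1 and 2, with 64 and 109 UMIs, and the 15 and 39 epithelial cells of libraries 3 and 4 had none. The 94 and 115 non-T immune cells of libraries 1 and 2 had 0 UMIs. Macrophages or monocytes had 111 UMIs, 74 of them in 1 cell. The 21 stromal cells had 24 UMIs in 3 cells, 22 of them in 1 cell. The stromal level, 211 CPM (135 to 314), was above that of epithelium but rests on that cell. T cells, B cells and the 3 dendritic classes had 0, which for T cells allows up to 0.203 CPM. Wnt-active epithelium, gated by Axin2, Nkd1, Notum, Lgr5 and Ascl2, had 7.44 CPM (5.94 to 9.20) and the remaining epithelium 16.4 CPM (13.1 to 20.4). These differed in library 2 (6.08 and 18.8 CPM) and less in library 1 (12.7 and 16.1 CPM). In library 1, 27 of the 31 Wnt-active UMIs lay in 1 cell. In neutrophils (median 3224 UMIs) 0.251% of cells had a UMI, against 3.08% in epithelium, and thinned 0.0637 against 1.18%.

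Ccl20, the ligand of CCR6, was counted in type 17 and other CD4 T cells and in epithelium. Type 17 T cells had 223 UMIs, 168 CPM (147 to 192), but in 15 of 173 cells, and 1 cell of library 4 held 146. By library the level was 47.2 CPM in library 3 and 225 CPM in library 4. Other CD4 T cells had 122 UMIs in 7 cells, 33.8 CPM (28.0 to 40.3), with 82 in 1 cell. In library 3 they could not be told from type 17 cells, at 45.8 CPM and a log2 ratio of 0.04 (-0.73 to 0.75), and in library 4 they had 19.2 CPM. Of the 28 Ccl20-positive T cells, 14 had a UMI of Il17a, 6 of Foxp3 and 8 of Ccr6. Epithelium had 226 UMIs in 65 cells, 13.3 CPM (11.7 to 15.2), with 34 in library 1, 188 in library 2 and 0 in the 39 cells of library 4. Wnt-active and remaining epithelium, at 14.4 (12.2 to 16.7) and 11.6 CPM (8.83 to 15.0), overlapped, and their order differed between library 1 (2.46 and 13.7 CPM) and library 2 (17.3 and 11.5 CPM). B cells and the 3 dendritic classes had 0 UMIs.

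Epithelium exceeded the pooled immune classes in Ccl20 by a log2 ratio of 1.35 (1.11 to 1.59). It was 2.81 once the 5 cells with the most Ccl20 were left out of each class, since 309 of the 394 immune UMIs lay in 5 T cells, and 0.46 without library 2. T cells alone stood above epithelium, at 26.3 against 13.3 CPM, a log2 ratio of 0.98 (0.74 to 1.22). The 6354 immune cells outside the T classes had 5 Ccl20 UMIs, so the pooled immune level was lower. Epithelium and type 17 T cells mostly came from different libraries. With epithelium against all immune classes, the 10 genes all had enough UMIs: Ccl20, Cxcl13 and Ccl28 were at least 2-fold higher in epithelium and the other 7 lower. Over all genes 37.3% were higher and 19.0% lower. The medians were -3.28 for the 10 and 0.43 for all genes, and 2 of 18 other homing genes were higher in epithelium and 13 lower.

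Ccl28, the mucosal ligand of CCR10, was an epithelial transcript, with 159 of 172 UMIs (92.4%) in epithelium. The level was 9.39 CPM (7.98 to 11.0), with 12.5, 7.21 and 33.9 CPM in libraries 1, 2 and 4. The library 4 value came from 16 UMIs in 39 cells, 11 of them in 1 cell. All 8888 immune cells together had 4 UMIs, and 0.0395% of T cells had one against 5.54% of epithelial cells, thinned 0 against 1.48%. The log2 ratio was 7.47 (6.08 to 9.36), which depends on those 4 UMIs and was 3.30 with 1 CPM added to each class. Within library 2 the 127 immune cells had 0 UMIs, and the lower limit of the log2 ratio was -0.59, so the difference was not resolved there. Within the epithelium, Ccl28 was highest in the absorptive class. The 35 absorptive cells, gated by Slc26a3, Car4, Aqp8 and Guca2a, had 90.5 CPM (64.9 to 123) from 41 UMIs in 13 cells. Of these UMIs 30 lay in 5 cells. The remaining epithelium had 21.0 CPM (17.2 to 25.5) and Wnt-active cells 1.14 CPM (0.606 to 1.94). The log2 ratio of remaining over Wnt-active cells was 4.21 (3.37 to 5.17), with 2.91 in library 1 and 4.91 in library 2. Ccl20 and Ccl28 were found together in 5 epithelial cells, Ccl20 alone in 60 and Ccl28 alone in 76.

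Ccr10 marked the antibody-secreting cells. The 305 plasma cells had 2291 UMIs, 245 CPM (235 to 255), with 247 CPM in library 3 and 241 CPM in library 4, and 273 cells (89.5%) had a UMI. In neutrophils the share was 0.439%, and thinned the shares were 21.6 and 0.0637%. B cells without Ighd had 50.1 CPM (41.2 to 60.4) in 17 of 280 cells and Ighd-positive B cells 3.30 CPM (1.92 to 5.28). Plasma cells exceeded B cells without Ighd by a log2 ratio of 2.29 (2.01 to 2.58), 3.33 in library 3 and 1.47 in library 4. Of all Ccr10 UMIs 37.6% lay in mixed-lineage barcodes, which were left out.

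The immunoglobulin class of these cells was read from the heavy chain with the most UMIs, a split made after the levels had been seen. Igha, the heavy chain of the mucosal antibody IgA, led in 299 of 305 plasma cells, of which 270 (90.3%) had a Ccr10 UMI. Among B cells without Ighd, the 95 led by Igha had 116 CPM of Ccr10 (94.3 to 140), with a UMI in 12 cells (12.6%). The 93 led by Ighm had 9.70 CPM (3.15 to 22.6) and the 70 led by Ighg2b 5.98 CPM (1.63 to 15.3). Of the 111 Ccr10 UMIs in B cells without Ighd, 73 lay in 5 cells. The 70 cells with at least 5 UMIs of Jchain, the joining chain of secreted antibodies, had 93.7 CPM and the other 210 had 0.961 CPM. Between plasma and B cells 6 of the 10 genes had enough UMIs, Ccr10 higher and 5 lower, where 6.19% of all genes were higher and 68.5% lower. The medians were -4.16 and -1.27, and of 16 other homing genes 2 were higher and 10 lower. Ccr7 was at 318 CPM in B cells and 0.962 CPM in plasma cells. Ccr6 was at 109 and 0.214 CPM, and Cxcr5 at 106 CPM and 0 UMIs. Gpr15, a colon homing receptor, was higher in plasma cells by 3.56 on the log2 scale.

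Counts of Ccl17, Ccl22 and Ccr7 in epithelium came from few cells. Of 142 Ccl17 UMIs, 137 lay in 6 cells of library 4. The 39 epithelial cells of that library had 3274 CPM of the class II gene H2-Ab1 and 333 CPM of the leukocyte gene Ptprc, against 114 and 2.75 CPM in the 1070 of library 2. The part of dendritic RNA in these counts was not tested.

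For each gene, the genes most like it in level over 43 class-by-library sums were named from 12844 candidates, by Pearson's r of log2(CPM + 1). The sums share libraries, so r is a description. Htr7, a serotonin receptor, came first for both Ccl17 (r = 0.89) and Ccl22 (0.90), and Il12b was also near Ccl22 (0.85). Ccr7 was most like Il21r (0.94), Ccr4 like Sv2c (0.92), and Ccl20 like Il17re (0.84), a receptor subunit for interleukin 17C. Ccr6 was nearest to Chst10 (0.86) and Cxcr5 to Fcmr (0.76), the IgM Fc receptor. Cxcl13 was most like Slc9a4 (0.94), and Ccl28 like Fabp2 (0.99), a fatty acid carrier of absorptive cells, and Cdx2 (0.97), an intestinal transcription factor. Ccr10 was nearest to the immunoglobulin segment Ighv1-18 (0.94).

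**Figure D5:**
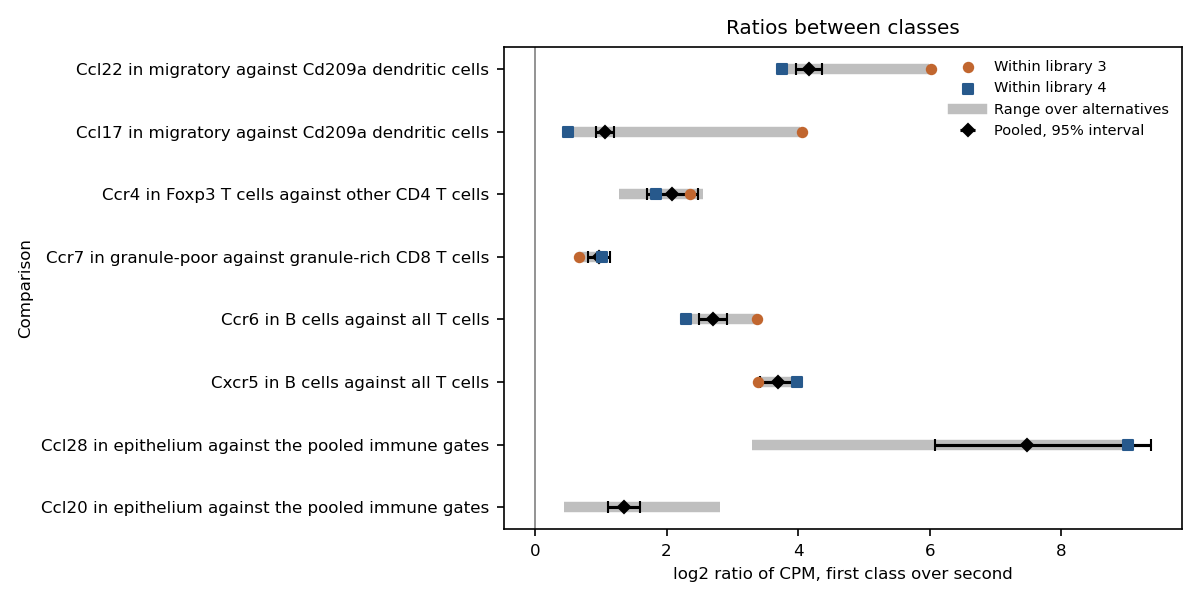
Log2 ratio of CPM between the first and second class named (x axis, 0 is no difference) for 8 comparisons; diamonds are pooled values with 95% intervals, circles and squares values within libraries 3 and 4, grey bars the range over other settings. Within-library values need both classes there and counts in each, so Ccl20 has none. All 8 pooled values lie above 0, and Ccl17 has the widest gap between libraries (4.05 and 0.51).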

How the data were processed

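CD45 and EPCAM antibodies sorted the cells of AOM/DSS colon tumours, and a 10x Chromium 3′ V3 kit captured them, per the labels' protocols. Each deposited value is a raw count of UMIs for 1 gene in 1 barcode. The authors used Cell Ranger 3.0.2 and mm10, per the submitters' processing notes. Near-identical gene copies and overlapping transcripts can share or lose reads there. No source used here states the annotation release.

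Barcodes were kept with at least 500 UMIs, 200 genes and at most 20% mitochondrial UMIs. The 24 gates used raw UMIs, barcodes of more than 1 of 5 lineages were left out, and no doublet caller was run, so doublets within a lineage remain. CPM, intervals and ratios were computed with Python 3.11.15, numpy 2.4.6, scipy 1.17.1 and pandas 2.3.3. The ratio intervals and the 2-fold call were checked on simulated Poisson sums of classes. Such sums do not carry the clustering of UMIs in single cells, so that check does not cover it. A gene was called at 2-fold with at least 10 UMIs over both classes. Where 0 UMIs were seen, the level of 3 counts is the limit. Pearson's r used sums of at least 20 cells. All 10 genes are named, and some genes of the gates and lists are not reported here. The genes, gene lists, gates and comparisons were chosen with earlier results of these data known. Ccl19 and Ccl21a have 2 gene IDs each, so they were summed and left out of the list counts.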

Additional observations from a re-analysis of the deposited data

How the results depend on the processing

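Each of the 8 log2 ratios was recomputed under other gates, filters, weightings and depths, and without single libraries, giving 104 values: 81 lay inside the interval of the reported value, 23 outside and none had the other sign. With the gate minimum doubled, the Ccl22 ratio of migratory over Cd209a cells was 5.00 and the Ccr4 ratio of Foxp3 over other CD4 T cells 1.27. Thinned to 1000 UMIs per cell, the Ccr4 ratio was 2.56 and the Ccr6 ratio of B over T cells 3.03. As a mean over cells, the Ccl17 ratio was 0.82 and the Ccr7 ratio of the CD8 classes 0.74. With 1 CPM added, the Ccl28 ratio was 3.30. The Ccl20 ratio of epithelium over immune cells was 0.92 with mixed barcodes kept and 0.77 without the top 5% of cells by UMIs. Leaving out each library in turn gave 3.74 to 5.99 for Ccl22, 0.49 to 4.02 for Ccl17, 0.68 to 0.99 for Ccr7, 2.30 to 3.37 for Ccr6, 3.40 to 3.98 for Cxcr5 and 0.46 to 1.58 for Ccl20.

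Further settings were chosen after seeing the data. Without the 5 cells of each class with the most UMIs of the gene, the ratio was 5.00 for Ccl22, 1.34 for Ccl17 and 2.81 for Ccl20. The migratory gate by Fscn1 and Ccr7 alone gave 0.88 for Ccl17. Leaving out libraries 1 and 2 gave 0.45 for Ccl20, from only 4 epithelial UMIs. Within library 4 alone, epithelium had 0 Ccl20 UMIs and immune cells 240, with an upper limit of 0.59 for the log2 ratio. That comparison is not among the 104 values. For Ccl28, thinning and leaving out the 5 highest cells left a class with 0 UMIs and gave no value. The cause of these shifts was not tested. No paired analysis was possible because the matrix does not assign barcodes to samples and no test was made. Counting depth limits Ccl28, Cxcl13 and Ccl20, whose UMIs lay in few cells.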

Other observations

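The ligands of CCR7 were sought in the same matrix. Ccl21a, which lymphatic vessels make to draw CCR7-bearing cells, had 328 UMIs over its 2 gene IDs, 304 of them (92.7%) in the 40 endothelial cells. They lay in 5 of these cells, with 70 UMIs in library 1 and 234 in library 2. Ccl19, the other ligand, had 1 UMI in all kept cells.

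The T cells of libraries 3 and 4, 1252 and 1259 in number, differed in homing genes, given here as values of unassigned libraries. Ccr7 stood at 355 CPM (342 to 369) in library 3 and 128 CPM (120 to 136) in library 4. S1pr1 was at 295 and 160 CPM and Cxcr6 at 129 and 362 CPM. Among Foxp3 T cells Ccr7 was at 232 and 140 CPM and Cxcr6 at 110 and 247 CPM. In Ighd-positive B cells Ccr7 was at 380 and 329 CPM. The make-up of the T cells also differed, with 126 and 29 granule-poor CD8 cells and 45 and 128 type 17 cells, and its part in these values was not tested.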
